A study of Arabidopsis thaliana with 20 samples.

Results

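Unopened flower buds of Arabidopsis thaliana carried 200 transcripts that were covered on both strands by 24 nt small RNA. They were chosen from the small RNA counts of the 2 Col-0 libraries, summed: at least 60% of a transcript's counts had to be 24 nt long, between 20 and 80% had to lie on its reverse strand, and the 200 with the most 24 nt counts were kept. Both shares were met by 2398 of the 27162 transcripts listed, so that 2198 ranked below the 200. Their Col-0 small RNA values are therefore given as a description, with no test. Small RNA was sequenced from the double mutant dxo1 rdr6, from the mutant dxo1 and from Col-0, the laboratory wild type. Libraries of dxo1 and Col-0 were also made from captured NAD-RNA, from total RNA and from polyA RNA, and dxo1 alone was sequenced by GMUCT, a method that catches decaying or cut polyadenylated transcripts by their free 5′ ends. Each of these 10 groups held 2 libraries from buds of plants about 4 weeks old, grown in 16 h of light and 8 h of dark. The labels name no allele, and they leave unsaid whether both libraries of a group had plants of their own, so p-values measure the spread between these libraries.

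In plants, 24 nt small interfering RNAs (siRNAs) arise when RNA polymerase IV transcribes a silenced locus, RDR2 copies the transcript into double-stranded RNA and DCL3 cuts it. Since both strands of the duplex become siRNAs, such loci show 24 nt reads on both strands. The siRNAs guide AGO4-type proteins to transcripts of RNA polymerase V and so bring DNA methylation to transposons, repeats and some genes, a pathway called RNA-directed DNA methylation. RDR6 works in another branch, in which coding or TAS transcripts are turned into 21 and 22 nt siRNAs by DCL4 and DCL2. DXO1 belongs to the DXO/Rai1 enzymes, which take unusual caps, NAD among them, off the start of a transcript.

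Several features of the libraries bear on every value below. The small RNA tables summed to between 137603 counts in dxo1 replicate 2 and 4087476 counts in Col-0 replicate 2. In both dxo1 rdr6 tables every value was an even number, and 92.1 and 88.0% of all counts were 25 nt long, against 9.66 to 13.6% in the other 4 libraries. The double mutant genotype and the way its tables were made therefore cannot be told apart. Outside NAD capture, the libraries labelled dxo1 replicate 1 were far above all others in DXO1 itself. DXO1 stood there at 511 CPM in total RNA, 509 CPM in polyA RNA, 1549 CPM in GMUCT and 4618 CPM in small RNA. Replicate 2 had 9.27, 19.2, 19.8 and 36.3 CPM, and the Col-0 libraries of those assays had 21.3 to 48.8 CPM. Since the labels name no allele, the counts cannot tell whether these libraries hold the genotype of their label. In NAD capture DXO1 stood at 23.9 and 23.7 CPM in dxo1, against 10.5 and 33.8 CPM in Col-0. Libraries are therefore called by their labels, and each direction given for dxo1 rests in part on the libraries labelled dxo1 replicate 1. RDR6 had 20 and 14 counts in the dxo1 rdr6 small RNA libraries, which cannot check that mutation. All 6 flower marker genes looked for and 5 of 6 tapetum genes had counts in every gene library, and seed storage genes summed to at most 2.21 CPM except in Col-0 NAD replicate 1, at 41.9 CPM. Late pollen genes summed to 202 and 93.7 CPM in dxo1 polyA RNA, against 558 and 544 CPM in Col-0.

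The 200 transcripts were mostly genes without a given name. RefSeq's annotation of TAIR10.1 held 191 of them, all as protein-coding genes, and gave 35 (18.3%) a symbol, against 38.8% of all annotated transcripts. A pseudogene was the immediate neighbour of 53 (27.7%) of these 191, against 10.3% of all annotated transcripts and 28.3% of the 2119 annotated ones that ranked below. They lay on all 5 chromosomes, with 46, 47, 39, 30 and 38 transcripts on chromosomes 1 to 5. Only 8 were next to another of the 200, and 4 of those formed 1 run of glycosyl hydrolase family 9 genes, the endoglucanase-type cellulases GH9B9, GH9B10, GH9B11 and GH9B12. Among the named genes were IND, the bHLH transcription factor that patterns the valve margin of the fruit, HAK5, a high-affinity potassium transporter, the sucrose transporter genes SUC6 and SUC8, the immune receptor gene RPP5, and LHCA2, an antenna protein of photosystem I. AGL36, HDG9 and MPC, which are known as maternally expressed imprinted genes of the endosperm, were also among them. How reads that match several places or overlapping genes were counted is not given in the sources used, so counts may be shared with near-identical copies.

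The limits of the choice passed through a continuous range. By rank, AT3G31900, AT5G04267 and AT5G42895 were just inside with 2351, 2345 and 2330 Col-0 counts of 24 nt, and CYP708A2, AT3G30320 and AT3G43870 just outside with 2307, 2281 and 2274. By 24 nt share, AT3G53910, AT5G39920 and AT3G42550 were inside at 60.3, 60.3 and 60.8%, and AT2G06420, AT1G36756 and AT2G31215 outside at 59.8, 58.0 and 56.6%. By reverse share at the low end, PIRL2, AT2G03821 and ARF21 were inside at 20.6, 21.4 and 21.9%, and AT3G44935, AT2G29040 and AT5G54460 outside at 19.8, 19.7 and 19.3%. At the high end, AT3G54730, AT4G26730 and AT3G43833 were inside at 79.98, 79.8 and 78.7%, and AT5G42955, AT4G04957 and AT3G30385 outside at 80.1, 81.5 and 82.5%. Of the 257 transcripts with enough 24 nt counts, 23 missed only the lower strand limit, 21 only the upper strand limit and 7 only the length share, and 6 missed both a strand limit and the length share. The same rule applied to Col-0 replicate 1 alone and to replicate 2 alone gave lists that shared 193 transcripts.

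The 200 transcripts took up most of the 24 nt counts assigned to transcripts in every genotype. Their share of the library's 24 nt counts was 57.4 and 54.4% in dxo1 rdr6, 55.7 and 51.1% in dxo1, and 53.9 and 54% in Col-0. The largest 95% Wilson interval of these shares, in the shallowest library, ran from 50.7 to 51.5%, and covers counting error only. At 21 and 22 nt the libraries lay further apart, where their share of the counts was 14.5 and 18.7% in dxo1 rdr6, 21.3 and 18% in dxo1, and 26.1 and 25.7% in Col-0. Both dxo1 libraries lay below both Col-0 libraries, and the dxo1 rdr6 libraries lay on both sides of dxo1 replicate 2.

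Within the 200, 24 nt was the main length in all 3 genotypes. The 24 nt share of their counts was 70.5 and 73.7% in dxo1 rdr6, 71.9 and 68.7% in dxo1, and 74 and 73.6% in Col-0. With 25 nt reads left out, the share was 79.1 and 79.2% in dxo1 rdr6, 73.1 and 69.8% in dxo1, and 75.1 and 74.7% in Col-0, so that both dxo1 rdr6 libraries were then the highest. The 21 and 22 nt share was 6.61 and 8.00% in dxo1 rdr6, 13.3 and 13.7% in dxo1, and 12 and 12.4% in Col-0, with no overlap between the genotypes. The 25 nt share, 10.9 and 6.89% in dxo1 rdr6, 1.66 and 1.55% in dxo1, and 1.55 and 1.52% in Col-0, was likewise far higher in dxo1 rdr6. Among the short reads, 22 nt was more frequent than 21 nt in all 6 libraries, by 1.96 and 2.19 times in dxo1 rdr6, 1.98 and 1.74 times in dxo1, and 2.21 and 2.15 times in Col-0. The reverse-strand share of the 24 nt counts was 41.4 and 40.9% in dxo1 rdr6, 48.5 and 48.5% in dxo1, and 48.5 and 48.6% in Col-0. Over all transcripts it was 41.5 and 40.7% in dxo1 rdr6, 47.2 and 47.2% in dxo1, and 47.2 and 47.1% in Col-0, so both dxo1 rdr6 libraries were lower there as well.

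**Figure D1:**
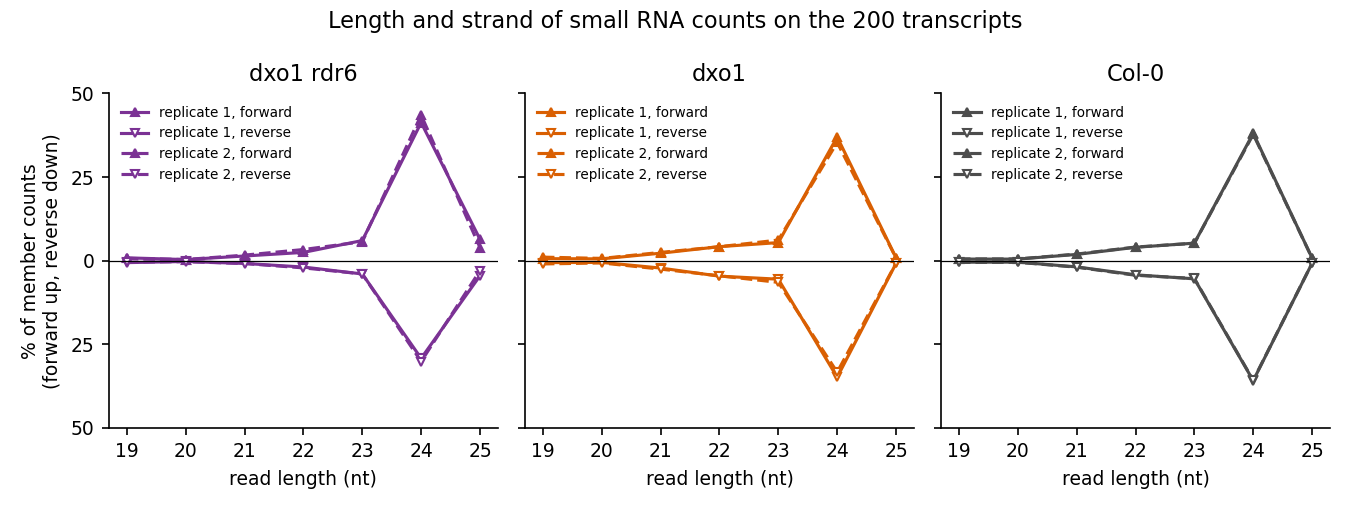
Share of the small RNA counts on the 200 transcripts (y axis, % of each library's counts on them) by read length (x axis, nt), forward strand upward and reverse strand downward, for dxo1 rdr6, dxo1 and Col-0, with one line per library and strand. The 24 nt peak stands on both strands in all 6 libraries, with 68.7 to 74.0% of the counts, and only the dxo1 rdr6 libraries show a 25 nt shoulder, at 10.9 and 6.89%.

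The 10 transcripts with the most 24 nt counts held 20.8 to 25.4% of the 24 nt counts on the 200, depending on the library. Levels are given as 24 nt CPM, the 24 nt counts of a transcript per 1000000 of all 24 nt counts, scaled by TMM factors, which adjust for differences in composition, and are not divided by length, so they compare libraries and not transcripts. AT4G27930, first by counts, had 16659 and 17367 in dxo1 rdr6, 23589.5 and 9740.4 in dxo1, and 16955 and 17489 in Col-0. AT2G08986 had 8058 and 6099 in dxo1 rdr6, 13307 and 13403 in dxo1, and 16296 and 16249 in Col-0. AT3G18700 had 21161 and 38938 in dxo1 rdr6, 13617 and 12341 in dxo1, and 14054 and 13963 in Col-0. AT2G08986 was lower in both dxo1 rdr6 libraries than in the other 4 libraries and AT3G18700 higher, while for AT4G27930 the dxo1 rdr6 and Col-0 libraries lay between both dxo1 libraries. AT2G06555 had 37679 and 26855 in dxo1 rdr6, 14157 and 10152 in dxo1, and 9856 and 10119 in Col-0. IND had 37779.7 and 22226 in dxo1 rdr6, 9099.8 and 9462 in dxo1, and 8927 and 8538 in Col-0. AT1G49260 had 43226 and 33023 in dxo1 rdr6, 5660.1 and 1738 in dxo1, and 8836 and 8268 in Col-0. These 3 were higher in both dxo1 rdr6 libraries than in any other library, and AT1G49260 was lower in both dxo1 libraries than in Col-0. AT3G21170 had 3075 and 2826 in dxo1 rdr6, 12986 and 4791 in dxo1, and 10239.7 and 10815 in Col-0, the lowest values being those of dxo1 rdr6. The remaining 3, AT3G23650, AT4G29654 and AT2G16030, ranged from 5494 to 15342 over all libraries. In dxo1, replicates 1 and 2 differed by over 2 times for AT4G27930, AT3G23650, AT3G21170, AT4G29654 and AT1G49260, whereas the Col-0 replicates of each of the 10 lay close together.

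**Figure D2:**
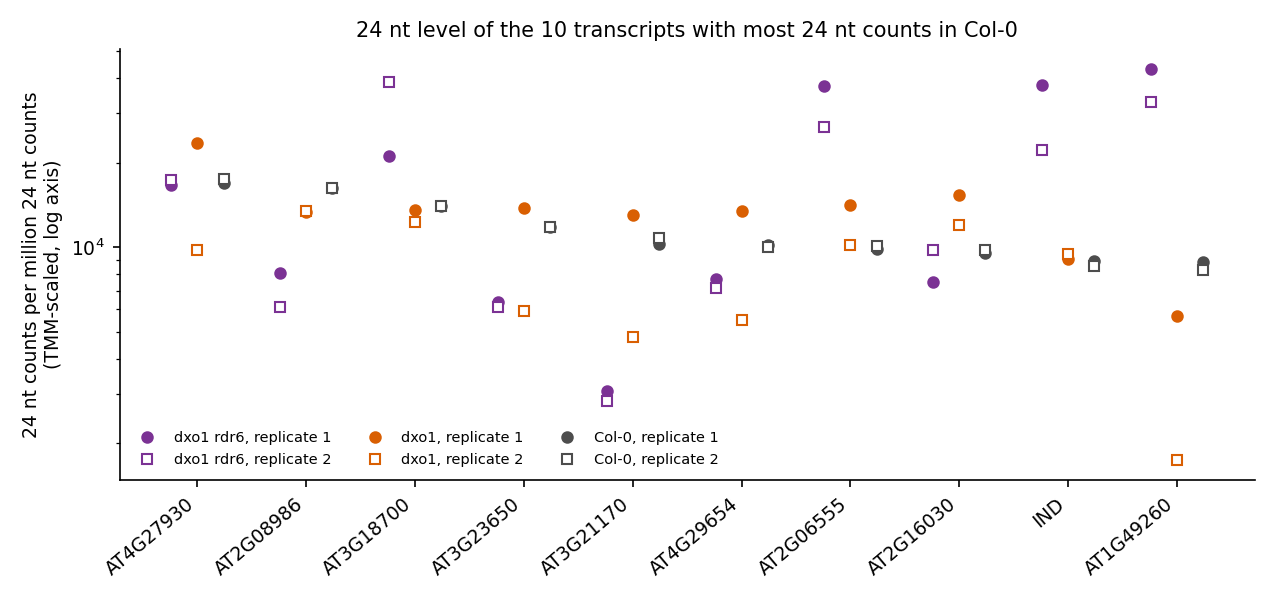
24 nt level (y axis, TMM-scaled 24 nt CPM, log scale) of the 10 transcripts with the most 24 nt counts in Col-0 (x axis), one point per library, with dxo1 rdr6, dxo1 and Col-0 from left to right for each transcript. AT3G18700, AT2G06555, IND and AT1G49260 are higher in both dxo1 rdr6 libraries than in the other 4, AT3G21170 and AT2G08986 lower, and the dxo1 replicates lie apart for AT1G49260 and several others.

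The comparison of dxo1 rdr6 with dxo1, which played no part in the choice of transcripts, asks how the small RNA of dxo1 buds differs when RDR6 is also mutated. All 200 transcripts passed the filter on low counts. In 24 nt counts 40 were higher and 88 lower in dxo1 rdr6 than in dxo1 (edgeR quasi-likelihood test, Benjamini-Hochberg adjusted p under 0.05 over all 2009 transcripts tested), and 72 did not pass. Among all transcripts tested 50.6% were called, 22.7% higher and 27.9% lower, against 20% and 44% of the 200. The share called also depends on the count level, and the 200 were chosen for high counts. The median log2 fold change was -0.52 for the 200 and -0.46 for all tested, a difference of -0.06. Among the 2198 transcripts ranked below, 1076 were tested, of which 183 were higher and 295 lower, with a median of -0.64. Fitted without the Col-0 libraries, 199 of the 200 passed the filter, of which 40 were higher and 64 lower. Their median was then -0.32 (all tested, -0.24). Without dxo1 replicate 2, the shallowest library, the medians were -1.25 and -0.48. The filter then passed 3056 transcripts in place of 2009, so both the library and the set tested changed how far the 200 stood from all tested. The general shift also depends on the scaling: with the 24 nt totals of the tested transcripts alone, 30 of the 200 were higher and 121 lower with a median of -1.07, against -0.96 over all transcripts tested. With library sizes from all small RNA counts, most of which are 25 nt in dxo1 rdr6, 0 were higher and 193 were lower, against a median of -3.94 over all transcripts. Over all transcripts tested, 44.9% of the calls were rises with TMM scaling and 29.4% with totals alone (among the 200, 31.3 and 19.9%). The calls below are thus changes relative to the other transcripts of the library. Without dxo1 replicate 2, 23 of the 200 were called higher and 129 lower, and without dxo1 rdr6 replicate 2, 25 and 122.

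Of lowest p among the rises was AT4G08760, whose 24 nt CPM was 19332 and 17413 in dxo1 rdr6, against 2129 and 1977 in dxo1 (log2 fold change 3.16 with SE 0.22, adjusted p = 0.000118). AT2G01008 had 73228 and 60452 in dxo1 rdr6, against 9134 and 9276 in dxo1 (log2 fold change 2.86 with SE 0.23, adjusted p = 0.000151). AT3G41762 had 67883 and 45416 in dxo1 rdr6, against 7635 and 8307 in dxo1 (log2 fold change 2.83 with SE 0.27, adjusted p = 0.000236). For each of these 3, as for AT5G42895 (log2 fold change 2.49), both dxo1 rdr6 libraries stood above both dxo1 libraries by a margin far over the spread within either genotype. Among the falls, AT2G24625 had 141 and 115 in dxo1 rdr6, against 1083 and 1101 in dxo1 (log2 fold change -3.12 with SE 0.26, adjusted p = 0.000151). AT3G43260 had 1025 and 1057 in dxo1 rdr6, against 4918 and 4525 in dxo1 (log2 fold change -2.18 with SE 0.21, adjusted p = 0.000238). AT1G24380 and AT1G27870 fell by 2.56 and 2.73 on the log2 scale. With library sizes from all small RNA counts, the 4 rises turned into negative fold changes, between -1.08 and -0.40.

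Of the 10 transcripts with the most 24 nt counts, AT1G49260 rose (log2 fold change 3.34 with SE 0.49, adjusted p = 0.00117), as did IND (log2 fold change 1.69 with SE 0.28, adjusted p = 0.00183), AT2G06555 (log2 fold change 1.41) and AT3G18700 (log2 fold change 1.21). AT3G21170, AT2G08986 and AT2G16030 fell, with log2 fold changes of -1.60, -0.92 and -0.66. Without dxo1 replicate 2, the log2 fold changes were 2.10 for AT1G49260, 1.06 for IND, 0.54 for AT2G06555, -2.78 for AT3G21170 and -1.56 for AT2G08986. Without dxo1 rdr6 replicate 1 they were 0.89 for IND, 0.76 for AT2G06555 and -1.50 for AT2G08986, and without the library labelled dxo1 replicate 1 AT3G21170 stood at -0.71. These 5 kept their calls in each of those settings. The calls of AT3G18700 and AT2G16030 were lost when single libraries were left out, among them dxo1 rdr6 replicate 2 for AT3G18700 (log2 fold change 0.09 at the lowest of its values with a library left out) and the library labelled dxo1 replicate 1 for AT2G16030. In the GH9B run, GH9B9, GH9B10 and GH9B12 fell, with log2 fold changes of -1.52, -1.31 and -1.74, and GH9B11 did not pass at -0.65 (adjusted p = 0.0638). HAK5 was at 382 and 229.7 in dxo1 rdr6, against 2191 and 1314 in dxo1 24 nt CPM (log2 fold change -2.57 with SE 0.34, adjusted p = 0.000706). The sucrose transporter genes SUC6 and SUC8, the immune receptor gene RPP5 and LHCA2 also fell, by 1.45, 1.14, 2.06 and 1.42 on the log2 scale; the call of LHCA2 was lost without the library labelled dxo1 replicate 1. Without dxo1 rdr6 replicate 2, GH9B9 and RPP5 fell by 2.64 and 3.28, and without dxo1 rdr6 replicate 1, SUC6 and SUC8 fell by 2.21 and 1.73. The GH9B genes, HAK5, SUC6, SUC8, RPP5 and LHCA2 were picked by their names after the values had been seen.

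The 21 and 22 nt counts on the same transcripts moved further down. In dxo1 rdr6 8 of the 200 were higher and 84 lower than in dxo1, where 27.7% of the 1928 transcripts tested were called, 9.23% higher and 18.5% lower. The median log2 fold change was -1.13 for the 200 and -0.47 for all tested. Of the 2198 transcripts that met both shares and ranked below, 418 were tested, and their median was -1.01. Fitted without the Col-0 libraries, in which the 200 had been chosen for high counts, 162 of the 200 passed the filter, of which 7 were higher and 36 lower, with a median of -0.79 (all tested, -0.14). Over the comparisons in which 1 library was left out, between 39 and 142 of the 200 were called lower; the lowest count came without dxo1 replicate 1 and the highest without dxo1 replicate 2, and without dxo1 rdr6 replicate 2 it was 51. For 152 of the 200, the 21 and 22 nt fold change lay below the 24 nt fold change. Of the transcripts called in both length classes, 51 were lower in both and 7 higher in both. AT4G17590 had 21 and 22 nt CPM of 118 and 80 in dxo1 rdr6, against 1081 and 1100.1 in dxo1 (log2 fold change -3.49 with SE 0.47, adjusted p = 0.000383), and AT3G46160 of 275 and 187 in dxo1 rdr6, against 1588 and 981 in dxo1 (log2 fold change -2.53 with SE 0.44, adjusted p = 0.00172). AT4G10603 was at 0 and 26.7 in dxo1 rdr6, against 539 and 335 in dxo1, and AT3G45990 was without a 21 or 22 nt count in either dxo1 rdr6 library, against 373 and 239 in dxo1. In the other direction, AT2G30615 had 1374 and 933 in dxo1 rdr6, against 145 and 95.7 in dxo1 (log2 fold change 3.11 with SE 0.43, adjusted p = 0.000494). AT1G48912 had 3495 and 2427 in dxo1 rdr6, against 434 and 167 in dxo1 (log2 fold change 3.11 with SE 0.45, adjusted p = 0.000565). With 1 library left out, the lowest log2 fold change was 2.18 for AT2G30615 and, without dxo1 replicate 2, 1.96 for AT1G48912. Both values of dxo1 replicate 2 rest on few counts, since that library held 34049 counts of 21 and 22 nt in all. AT2G01008 and AT4G08760, named above for their 24 nt rise, also rose at 21 and 22 nt, by 2.02 and 1.71; the call of AT2G01008 was lost without dxo1 rdr6 replicate 2 (1.02), and that of AT4G08760 was lost without any 1 of 5 libraries, with values from 0.84 to 1.55.

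**Figure D3:**
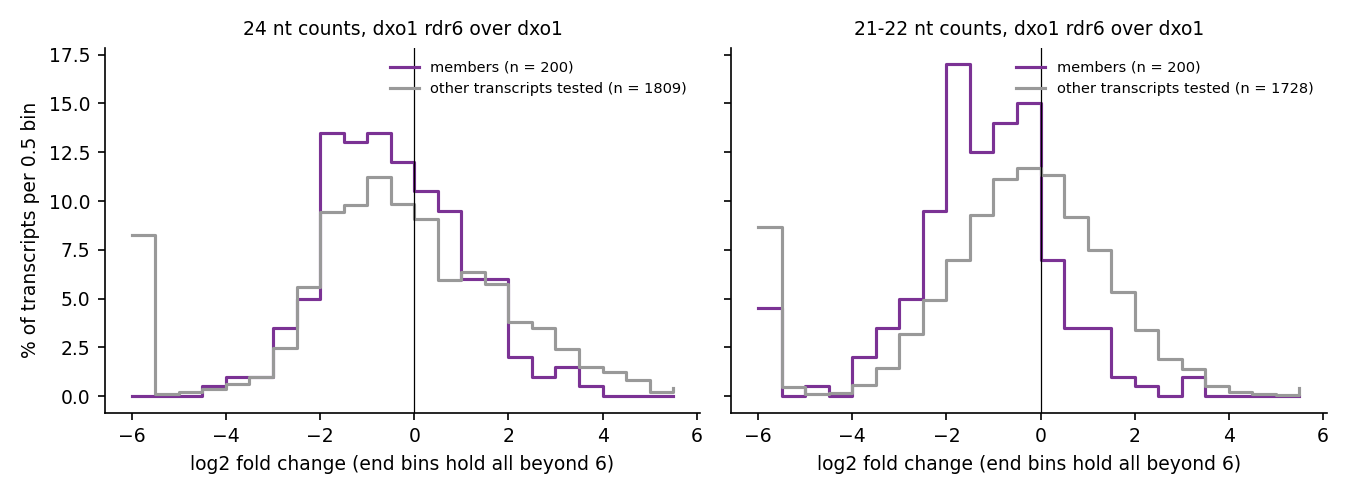
Distribution of log2 fold changes between dxo1 rdr6 and dxo1 (x axis, bins of 0.5) as % of transcripts (y axis), for 24 nt counts at left and 21 and 22 nt counts at right, with the 200 transcripts in purple and the other transcripts tested in grey. The 24 nt curves have medians of -0.52 for the 200 and -0.46 for all tested, and at 21 and 22 nt the 200 lie to the left, at -1.13 against -0.47.

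A ratio taken within each library needs no scaling between libraries. For every 100 counts of 24 nt, the 200 held 9.37 and 10.9 counts of 21 and 22 nt in dxo1 rdr6, 18.5 and 19.9 in dxo1, and 16.2 and 16.8 in Col-0. Transcript by transcript, the 21 and 22 nt share of the 3 lengths was lower in both dxo1 rdr6 libraries than in both dxo1 libraries for 110 of the 184 with at least 20 counts in each library, and higher for 19. Over all transcripts the same ratio was 37.1 and 31.6 in dxo1 rdr6, 48.2 and 56.4 in dxo1, and 33.4 and 35.4 in Col-0. The 4 transcripts with the most 21 and 22 nt counts in dxo1 are given per 1000000 of all 21 and 22 nt counts, without TMM scaling. AT4G27930 gave 9562 and 7881 in dxo1 rdr6, 16914 and 10544 in dxo1, and 16344 and 16443 in Col-0. AT2G06555 gave 13947 and 15490 in dxo1 rdr6, 13111 and 11983 in dxo1, and 13003 and 12428 in Col-0, so that its libraries lay within a narrow range. AT2G16030 gave 2422 and 2663 in dxo1 rdr6, 7590 and 6197 in dxo1, and 6246 and 6137 in Col-0. AT3G18700 gave 4050 and 18289 in dxo1 rdr6, 6431 and 6637 in dxo1, and 10170 and 9533 in Col-0, the dxo1 rdr6 replicates lying on both sides of the others.

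The strand of the 24 nt counts on single transcripts differed in dxo1 rdr6, although the sum over the 200 lay on both strands in each library. Among transcripts with at least 20 counts of 24 nt in each library, the mean reverse share moved by more than 20 percentage points between dxo1 rdr6 and dxo1 for 65 of 177, in 30 toward the reverse and in 35 toward the forward strand. Between dxo1 and Col-0, it moved that far for 0 of 193, and the median absolute shift was 2.02 points, against 16.8 points between dxo1 rdr6 and dxo1. AT3G41762 had reverse shares of 14 and 18.9% in dxo1 rdr6, 65.7 and 66.1% in dxo1, and 64.7 and 65.2% in Col-0. IND had 45.5 and 36% in dxo1 rdr6, 22.4 and 20.3% in dxo1, and 22.2 and 21.2% in Col-0. HDG9, a homeodomain gene, had 82.8 and 84.1% in dxo1 rdr6, 42.4 and 34% in dxo1, and 44 and 44.1% in Col-0, over 174, 314, 2785, 53, 925 and 2537 counts of 24 nt. In these 3, singled out after their values had been seen, the dxo1 and Col-0 libraries lay near each other and both dxo1 rdr6 libraries apart. Against Col-0 replicate 2, the reverse shares correlated across transcripts with Pearson's r of 0.488 and 0.541 in dxo1 rdr6 (n = 182 and 195), 0.987 and 0.939 in dxo1 (n = 200 and 193) and 0.994 in Col-0 replicate 1 (n = 200), while the dxo1 rdr6 libraries correlated with each other at 0.887 (n = 182). These are descriptions across transcripts, which share a library and are not independent. The shallow dxo1 replicate 2 held 30807 counts of 24 nt on the 200, fewer than the 74176 and 126828 of dxo1 rdr6, in which every value is even. Both share limits of the choice, length and strand, were met by 103 and 131 of the 196 and 198 with at least 10 counts in dxo1 rdr6. In dxo1 they were met by 195 and 171 of 200 and 198, and in Col-0, whose counts made the choice, by 199 and 198 of 200. A miss can be of the 24 nt share, in which 25 nt reads count, and need not be of strand. Whether the genotype or the making of the dxo1 rdr6 tables moved the strand shares cannot be told apart.

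**Figure D4:**
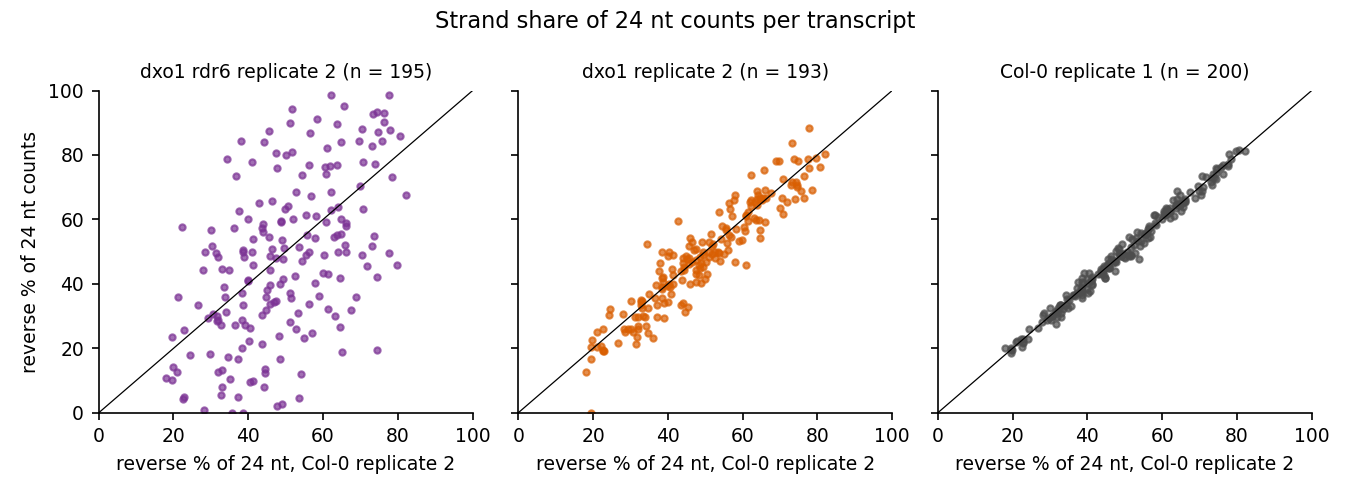
Reverse-strand share of the 24 nt counts of each transcript (y axis, %) against the same share in Col-0 replicate 2 (x axis, %), for dxo1 rdr6 replicate 2, dxo1 replicate 2 and Col-0 replicate 1, with one point per transcript with at least 20 counts of 24 nt in both libraries and a line of equal shares. Points lie along the line in dxo1 (r = 0.939) and Col-0 (r = 0.994) and scatter widely in dxo1 rdr6 (r = 0.541).

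Between dxo1 and Col-0 the 24 nt levels are given without a test, since Col-0 chose the transcripts and a transcript chosen for its high value there tends to lie lower elsewhere. The median log2 fold change was -0.05 (all tested, -0.02), 178 of the 200 stayed within 2-fold, 1 was more than 2-fold higher and 21 more than 2-fold lower. MPC was the lowest, with 96 and 26.5 24 nt CPM in dxo1, against 969.7 and 1004 in Col-0; the dxo1 rdr6 libraries had 40.2 and 91.9. AT5G44770 had 261 and 264 in dxo1 rdr6, 162 and 186 in dxo1, and 1156 and 1152 in Col-0, and AT4G01240 had 0 and 11.5 in dxo1 rdr6, 119.6 and 39.8 in dxo1, and 788 and 793 in Col-0. AT2G30615 had 2713 and 1849 in dxo1 rdr6, 524 and 226 in dxo1, and 2429 and 2351 in Col-0, so that its dxo1 rdr6 and Col-0 libraries overlapped and dxo1 alone lay below. For the other 3 the dxo1 rdr6 libraries stayed low beside dxo1. In dxo1 replicate 2, MPC, AT5G44770, AT4G01240 and AT2G30615 each had fewer than 20 counts of 24 nt. MPC and AT4G01240 also had fewer than 20 in both dxo1 rdr6 libraries. In dxo1 replicate 2, 3 counts stand at 49.7 24 nt CPM before TMM scaling, so the lowest values there rest on very few counts. HAK5 had 382 and 229.7 in dxo1 rdr6, 2191 and 1314 in dxo1, and 4645 and 4668 in Col-0. These 5 were singled out after their values had been seen, the first 4 as the lowest fold changes. Only AT2G16580 was more than 2-fold higher in dxo1, being higher in 1 library and lower in the other, with 4266 and 265 in dxo1, against 824 and 845 in Col-0. At 21 and 22 nt the median of the 200 was -1.31 between dxo1 and Col-0 and that of all tested -0.67 with TMM scaling. Within the 200, the ratio of these lengths to 24 nt was higher in both dxo1 libraries than in Col-0. Other scalings were not tested for these medians. Without TMM scaling, the 200 held 21.3 and 18% of the 21 and 22 nt counts in dxo1, against 26.1 and 25.7% in Col-0. AT2G06555 had TMM-scaled 21 and 22 nt CPM of 12931 and 9757 in dxo1, against 21664.5 and 23855 in Col-0. Its values without TMM scaling, given above, lay within a narrow range.

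As RNA, most of the 200 were close to silent in buds. In the 14 gene libraries, 50 had no count at all and 147 had fewer than 10 counts in every library. At least 10 counts were reached by 9 to 14% of them in dxo1 NAD capture and 6 to 11% in Col-0 NAD capture, where the share of all genes was 53.2 to 60.9% and 37.9 to 55.2%. In total RNA it was 10.5 to 13.5% in dxo1 and 9 to 11.5% in Col-0 (all genes, 50.9 to 61.4%). In polyA RNA it was 17 to 19% in dxo1 and 18.5 to 20.5% in Col-0 (all genes, 66.7 to 69.5%), and in GMUCT of dxo1 21 to 24.5% (all genes, 72.6 to 74.6%). Only 31 had 10 counts or more in every polyA library. AT4G27930, first by 24 nt counts, had no count in any of the 14 libraries, and HAK5 had 1 count in all of them together. A count of 0 allows up to 0.297 CPM in the shallowest polyA library (3 counts of its total, counting error only).

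In polyA RNA, a small group of well expressed genes stood apart from this. LHCA2 reached 1399 and 1404 CPM in dxo1 polyA RNA, against 1296 and 1224 in Col-0 (CPM of gene counts, not divided by length). PKP-BETA1, a subunit of plastid pyruvate kinase, had 217 and 255 CPM in dxo1, against 243 and 242 in Col-0. The next by mean level were RPP5, AT5G45960, CXIP2, AT2G20950, the CCAAT-box factor subunit NF-YC10 and AT2G32500, with means of 20.7 to 61.9 CPM over the 4 polyA libraries. By 24 nt counts in Col-0 their ranks among the 200 were 15 for CXIP2, 50 for NF-YC10, 106 for PKP-BETA1 and 158 for LHCA2. A ranking by polyA level leaves out AT2G01008. It had 55.8 and 84.2 CPM in dxo1 total RNA and 64.5 and 67.1 CPM in Col-0 total RNA, but at most 2.57 CPM in any polyA library.

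PolyA RNA of dxo1 was compared with that of Col-0 to see how transcript levels differ in the mutant. Of the 200, 41 passed the filter on low counts. AT5G24200, AT1G13470 and BGAL15 passed through dxo1 libraries alone and so could hardly be called lower, and BGAL15 was not called. AT1G48953 and AT4G10603 passed through Col-0 libraries alone and so could hardly be called higher. The filter thus set the direction of any call among them. Of the 41, 5 were higher and 8 lower in dxo1, where 30.1% of the 19730 genes tested were called, 15.6% higher and 14.5% lower, and the median log2 fold change was -0.07 (all genes, 0.01). AT5G24200 had 6.93 and 1.90 CPM in dxo1, against 0.0827 and 0 CPM in Col-0; 98 counts in dxo1 against 1 in Col-0 give a ratio of 133 (95% exact interval 23.4 to 5313, counting error only). AT1G13470 had 4.39 and 1.20 CPM in dxo1, against 0.0827 and 0.120 CPM in Col-0, 62 counts against 3 and a ratio of 28.1 (9.17 to 139.9). In both, the library labelled dxo1 replicate 1 was well above dxo1 replicate 2, and both libraries of dxo1 stood above both of Col-0. HR4, a homolog of the broad-spectrum mildew resistance protein RPW8, had 24.1 and 11.3 CPM in dxo1, against 5.29 and 5.21 CPM in Col-0 (log2 fold change 1.76 with SE 0.35, adjusted p = 0.0112; 1.10 without the library labelled dxo1 replicate 1). IND had 2.55 and 2.60 CPM in dxo1, against 1.32 and 1.14 CPM in Col-0 (log2 fold change 1.07 with SE 0.29, adjusted p = 0.0331), and CXIP2, a plastid monothiol glutaredoxin, had 50.2 and 50.7 CPM in dxo1, against 32.8 and 39 CPM in Col-0 (log2 fold change 0.49 with SE 0.11, adjusted p = 0.017).

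Of lowest p among the falls, AT5G22860 had 5.18 and 6.40 CPM in dxo1, against 22.7 and 20.2 CPM in Col-0 (log2 fold change -1.89 with SE 0.16, adjusted p = 0.00112). GH9B11 had 1.93 and 0.999 CPM in dxo1, against 13.1 and 11.7 CPM in Col-0 (log2 fold change -3.05 with SE 0.27, adjusted p = 0.00121), whereas the neighbours GH9B9, GH9B10 and GH9B12 had at most 8 counts in any polyA library. AT2G18480 had 4.30 and 3.8 CPM in dxo1, against 11.5 and 13.1 CPM in Col-0 (log2 fold change -1.60 with SE 0.18, adjusted p = 0.00203). AT1G48953 had no count in dxo1 and 1.07 and 1.08 CPM in Col-0, which makes it at least 7.60-fold lower in dxo1 (against 3 counts over the group). AT4G16640, AT4G10603, AT4G10890 and AT2G34655 fell by 1.52, 1.74, 0.55 and 1.37 on the log2 scale. All 13 separated the 4 libraries by genotype, as did 22 of the 28 that were not called. Without Col-0 replicate 1 or without Col-0 replicate 2, 0 were called higher and 3 lower (AT5G22860, GH9B11 and AT2G18480), and without the library labelled dxo1 replicate 1, 9 were called higher. All 4 late pollen genes looked for also fell in dxo1 polyA RNA, as VGD1 did, with 170.3 and 81.2 CPM in dxo1, against 467 and 466 CPM in Col-0; the part of pollen content in the falls of the 8 was not tested. In bulk buds, fewer cells of a type and less RNA per cell cannot be told apart. Among the 13, the 24 nt fold change between dxo1 and Col-0, a description, was -1.47 for AT5G24200, -1.61 for AT4G10603, -0.55 for AT4G10890 and -0.48 for AT1G13470, and between -0.42 and 0.20 for the other 9. Total RNA, with shallower libraries and fitted together with NAD capture, called 0 of 29 higher and 1 lower (all genes, 0.988% in all, 0.406% higher and 0.581% lower). The 1 was GH9B11, with 1.75 and 0.999 CPM in dxo1, against 8.54 and 7.57 CPM in Col-0 (log2 fold change -2.64 with SE 0.47, adjusted p = 0.0376). That call was lost without any 1 of 6 libraries (log2 fold change -2.98 to -2.18). With the total RNA libraries fitted alone, 24 were tested, of which 2 were higher and 3 lower. Over all 16734 genes tested, 1202 were then higher and 1155 lower, so the share called depends on the fit.

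**Figure D5:**
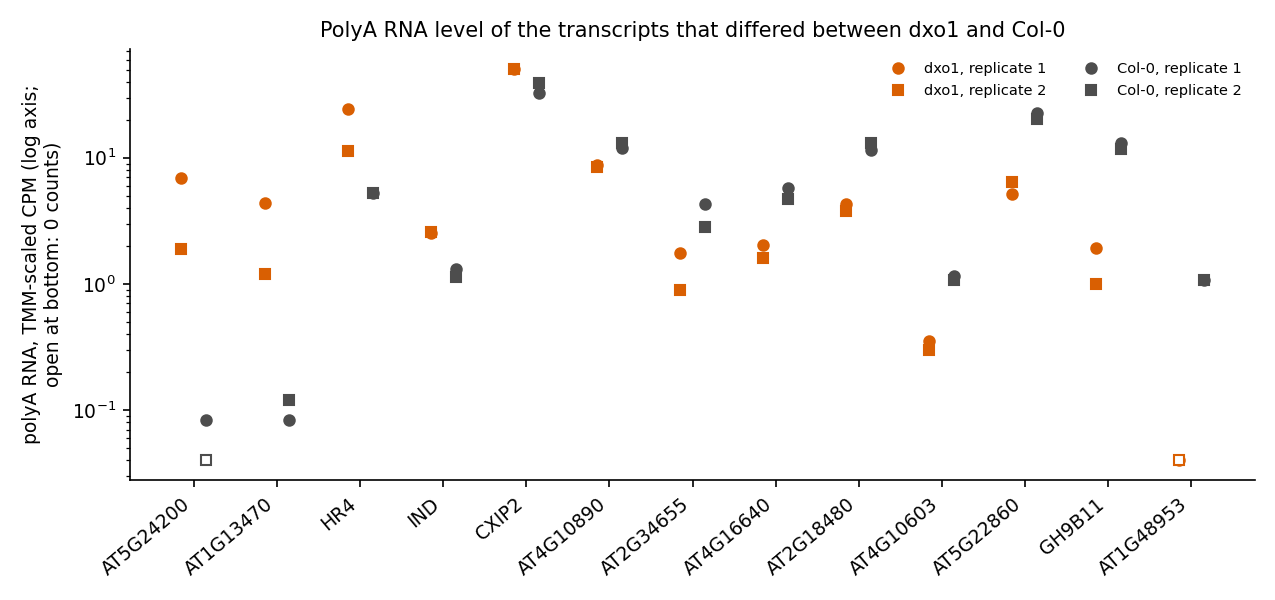
PolyA RNA level (y axis, TMM-scaled CPM, log scale) of the 13 transcripts called different between dxo1 and Col-0 (x axis, by fold change), one point per library with dxo1 left of Col-0, and open symbols at the bottom for 0 counts. In each of them both dxo1 libraries lie on one side of both Col-0 libraries, and AT5G24200 and AT1G13470 have the widest gap between the dxo1 libraries.

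NAD capture selects RNA that carries an NAD cap, and was compared with the total RNA of its own genotype. Of the 29 transcripts tested, 7 were higher and 2 lower in capture than in total RNA in dxo1, where 36.5% of the 17718 genes tested were called, 18.4% higher and 18.1% lower. In Col-0 6 were higher and 0 lower (all genes, 24.2% in all, 13.5% higher and 10.7% lower; 8 of the 29 had an unadjusted p under 0.05, and DESeq2 called 5 higher and 0 lower). The median log2 fold change was 0.39 in dxo1 and 0.54 in Col-0, against 0.04 and 0.06 over all genes. Of the 29, 8 passed the filter through capture libraries alone and so could hardly be called lower; they made up 4 of the 7 higher in dxo1 (AT3G42550, AT1G13470, AT2G34655 and AT4G10603) and 2 of the 6 in Col-0 (AT3G42550 and AT2G34655). The medians are therefore a description of what passed, and they moved with the libraries and the filter. With a filter on the mean count over all libraries, 22 were tested and the medians were 0.12 in dxo1 and 0.22 in Col-0. In dxo1 the median was 0.09 without dxo1 capture replicate 1 and -0.02 without all dxo1 libraries numbered 1. In Col-0 it was 0.01 over the 18 tested when only Col-0 libraries were fitted. AT3G42550 had 40 and 26 counts in dxo1 capture and 5 and 6 in Col-0 capture, and none in total RNA of either genotype, so it was at least 56.6-fold higher in capture in dxo1 and at least 9.92-fold in Col-0 (against 3 counts over the group). AT4G10890 had 24.6 and 19.4 CPM in dxo1 capture, against 6.43 and 6.14 CPM in dxo1 total RNA (log2 fold change 1.83 with SE 0.32, adjusted p = 0.002), and 17.4 and 27.6 CPM in Col-0 capture, against 6.20 and 9.80 CPM in Col-0 total RNA (log2 fold change 1.63 with SE 0.34, adjusted p = 0.00858). AT2G34655 and HR4 were also called higher in both genotypes; HR4 had 30.2 and 2.89 CPM in Col-0 capture, against 0.854 and 1.78 CPM in Col-0 total RNA, a call lost without any 1 of 7 libraries (log2 fold change 1.27 to 4.64). AT1G13470, GH9B11 and AT4G10603 were called higher in dxo1, and AT5G22860 and NF-YC10 in Col-0. In dxo1, AT3G42550 and AT4G10890 kept their calls whichever library was left out, and the calls of HR4, GH9B11, PKP-BETA1, AT4G10603, AT1G13470, AT2G20950 and AT2G34655 were lost without any 1 of 3 to 6 libraries. In Col-0, each of the 6 calls was lost without any 1 of 2 to 7 libraries, Col-0 total RNA replicate 1 among them. The 2 lower ones, PKP-BETA1 with 118 and 125 CPM in dxo1 capture, against 203 and 201 CPM in dxo1 total RNA and AT2G20950 with 5.63 and 9.02 CPM in dxo1 capture, against 19 and 14.6 CPM in dxo1 total RNA, were no longer called when libraries were scaled by totals alone (log2 fold change -0.05 and -0.54). The difference between the genotypes in the capture ratio was tested itself and called 0 of the 29 and 0% of all genes by edgeR (0 of the 29 at an unadjusted p under 0.05 and 1332 of all, and 0 of the 29 by DESeq2). In simulated counts this test recovered 2.99% of 2-fold and 29.9% of 4-fold changes, so the lack of calls does not show that capture was alike. Late pollen genes summed to 204 and 186 CPM in dxo1 capture against 93.2 and 52.8 in dxo1 total RNA, and to 278 and 515 in Col-0 capture against 214 and 208 in Col-0 total RNA. Their part in the captured transcripts was not tested. Without Col-0 total RNA replicate 1, 0 were called in Col-0, and without dxo1 capture replicate 1, 2 higher and 0 lower in dxo1. Without all dxo1 libraries numbered 1, 0 of 28 transcripts were called by edgeR in either genotype (4 in dxo1 and 8 in Col-0 at an unadjusted p under 0.05).

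Uncapped ends were read in dxo1 alone and compared with dxo1 polyA RNA, which also served in the polyA comparison. Of 43 transcripts tested, 10 were higher and 10 lower in GMUCT (all genes, 64.8% in all, 32.7% higher and 32% lower), and the median log2 fold change was 0.00. CXIP2 had 128 and 111 CPM in GMUCT, against 48.8 and 49.5 CPM in polyA RNA (log2 fold change 1.28 with SE 0.12, adjusted p = 5.24e-05), and AT4G02760 had 28.8 and 28.5 CPM in GMUCT, against 15 and 14 CPM in polyA RNA (log2 fold change 0.98 with SE 0.14, adjusted p = 0.000449). AT4G03580 had 150 and 56 counts in GMUCT and none in dxo1 polyA RNA, at least 28.9-fold higher in GMUCT (against 3 counts over the group), with 1 and 1 counts in Col-0 polyA RNA. It passed the filter through GMUCT alone, so that the filter set the direction of its call. GH9B11, called lower, passed through polyA libraries alone, as did AT1G48953 and AT4G10603, which were not called. The 24 nt CPM of AT4G03580 was 30967 and 21353 in dxo1 rdr6, 8239 and 6993 in dxo1, and 5629 and 5675 in Col-0. AT1G71870 had 11.6 and 12.7 CPM in GMUCT, against 5.98 and 7.52 CPM in polyA RNA (log2 fold change 0.85 with SE 0.18, adjusted p = 0.00385). At the other end, LHCA2 had 63.1 and 92.1 CPM in GMUCT, against 1340.1 and 1384 CPM in polyA RNA (log2 fold change -4.13 with SE 0.20, adjusted p = 3.89e-06). AT2G16580 had 1.45 and 1.83 CPM in GMUCT, against 5.12 and 6.05 CPM in polyA RNA, AT1G11270 had 2.33 and 2.82 CPM in GMUCT, against 5.64 and 4.98 CPM in polyA RNA, and SWEET12, a sucrose efflux transporter, had 11.5 and 12.3 CPM in GMUCT, against 17.5 and 19.2 CPM in polyA RNA. All 20 called transcripts separated the GMUCT from the polyA libraries, and the other 12 included RPP5 and AT5G45960 among the higher and GH9B11 and CYCP2;1 among the lower.

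The genes of the 24 nt pathway itself were expressed in both genotypes. Of 22 genes listed for 24 nt siRNA and RNA-directed DNA methylation, 3 rose and 0 fell in dxo1 polyA RNA, with a median log2 fold change of 0.11 (all genes, 0.01). The 3 make up a share near the 15.6% of all genes called higher, beside 14.5% called lower. They were RDM1, a component of the complex that assists polymerase V, with 14.5 and 13.9 CPM in dxo1, against 5.13 and 6.04 CPM in Col-0 (log2 fold change 1.33 with SE 0.16, adjusted p = 0.00246), CLSY1, a chromatin remodeller that acts with polymerase IV, with a log2 fold change of 0.60, and SUVH2, a methyl-DNA reader, with 0.42. All 3 lost their calls without Col-0 replicate 1, and CLSY1 and SUVH2 also without Col-0 replicate 2. In total RNA, 0 rose and 1 fell: DCL3, the 24 nt dicer, had 34.5 and 33 CPM in dxo1, against 93.4 and 95.4 CPM in Col-0 (log2 fold change -1.48 with SE 0.29, adjusted p = 0.0445), a call lost without any 1 of 6 libraries. In polyA RNA DCL3 had 75.6 and 50.8 CPM in dxo1, against 91.4 and 91.1 CPM in Col-0 and did not pass (adjusted p = 0.0547). In NAD capture against total RNA, 0 of the 22 were higher and 8 lower in dxo1, and 1 was higher and 5 lower in Col-0, with medians of -0.64 and -0.73. Of all genes, 18.4% were higher and 18.1% lower in dxo1, and 13.5% higher and 10.7% lower in Col-0. DCL3 was among the lower in both, and KTF1 was the higher one in Col-0. Calls in capture depend on the scaling. With library totals alone, 669 of all genes were lower in dxo1, in place of 3215, and 5358 higher, in place of 3256. In Col-0, 468 were lower, in place of 1899, and 2106 higher, in place of 2388. The capture calls of this list and of those below were counted with TMM scaling and all libraries only. Of 10 genes for DNA methylation maintenance and removal, 2 rose (CMT3 and DDM1, by 0.40 and 0.39) and 2 fell (SUVH6 and the demethylase gene ROS1, by 0.58 and 0.29) in dxo1 polyA RNA; all 4 calls were lost without Col-0 replicate 1 and without Col-0 replicate 2. Of 9 genes of the RDR6 branch, 1 rose, AGO2, with 49.2 and 56.6 CPM in dxo1, against 27 and 27.8 CPM in Col-0 (log2 fold change 0.94 with SE 0.11, adjusted p = 0.00196), and 7 were lower in NAD capture than in total RNA in each genotype, with medians of -1.30 in dxo1 and -1.19 in Col-0, beside 18.1 and 10.7% of all genes. In GMUCT against polyA RNA, 3 of the 22, 4 of the 10 and 2 of the 9 were higher, and 14, 5 and 6 were lower, in a comparison that called 32.7% of all genes higher and 32% lower.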

How the data were processed

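RNA of unopened Arabidopsis flower buds was measured in 20 libraries of 10 groups. The deposited gene tables hold read counts per gene, and the deposited small RNA tables hold read counts per transcript by length (19 to 25 nt) and strand, both not normalized by the authors. Per the submitters' processing notes, cutadapt, STAR 2.4.2a, HTSeq and TAIR10 were used. For small RNA, the counting tool is not given in the sources used. Entries of the gene tables that name no gene were left out. In NAD capture they held 91.8 to 96.1% of the counts and left 1144896 to 3178702 gene counts per library. In total RNA they held 90.8 to 91.2% and left 2576448 to 8309456. They held 20.3 to 21.8% of the polyA counts, which left 10100250 to 16833010, and 18.2 to 28.3% of those of GMUCT, which left 19769742 to 30883266.

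Counts were tested with edgeR 4.0.16 in R 4.3.3 by its quasi-likelihood F test after filterByExpr (minimum count 10) and TMM scaling. All tests were two-sided, adjusted over all features of a comparison by Benjamini-Hochberg and called at an adjusted p under 0.05. The fits held the small RNA libraries (1 fit per length class), the NAD and total RNA libraries, the polyA libraries, or the GMUCT and polyA libraries. DESeq2 1.42.0, other scalings and filters and the leaving out of libraries were alternatives, and the halving of the dxo1 rdr6 counts was added after the data had been seen. A permutation of 2 libraries against 2 cannot go below p = 0.333, so none was used. The test scripts were tested on simulated data. Tables and figures were made with Python 3.11.15, scipy 1.17.1 and matplotlib 3.10.9. The transcripts and gene lists were chosen with earlier results of these data known. Named genes were, for each comparison, all called transcripts where there were at most 8 and otherwise the 4 of lowest p in each direction, besides the 10 with the most 24 nt counts, the 4 with the most 21 and 22 nt counts in dxo1, the 8 of highest polyA level, those next to each limit of the choice and the called genes of the lists. Replicates of a group differed by more than the sampling noise in every group, and replicate numbers were not treated as pairs.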

Additional observations from a re-analysis of the deposited data

Results flagged for a closer look

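Reads of 25 nt, a length that no comparison used, took up 10.9 and 6.89% of the counts on the 200 transcripts in dxo1 rdr6 replicates 1 and 2. In dxo1 the share was 1.66 and 1.55%, and in Col-0 1.55 and 1.52%. Over all transcripts, 25 nt reads made up 92.1 and 88.0% of the counts in dxo1 rdr6, 10.2 and 13.6% in dxo1 and 12.2 and 9.66% in Col-0. The part of these reads in the results above was not tested.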

How the results depend on the processing

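Of the alternatives tried for named genes, 1030 values kept their direction and side of the threshold, 179 lost and 37 gained a call, and 20 reversed. With library sizes from all small RNA counts, 0 of the 200 were called higher and 193 lower at 24 nt, and 0 higher and 198 lower at 21 and 22 nt. The reversed log2 fold changes were then, at 24 nt, -0.40 for AT4G08760, -0.72 for AT2G01008, -1.08 for AT5G42895, -0.78 for AT3G41762, -3.50 for AT4G27930, -2.24 for AT3G18700, -2.19 for AT2G06555, -1.94 for IND and -0.22 for AT1G49260. At 21 and 22 nt they were -0.53 for AT2G30615, -0.54 for AT1G48912, -1.61 for AT2G01008, -1.93 for AT4G08760, -2.67 for AT3G18700, -3.35 for AT2G06555 and -2.03 for AT1G49260. With no filter on low counts, 6 were higher and 146 lower at 24 nt, with -1.57 for AT4G27930, -0.32 for AT3G18700 and -0.14 for AT2G06555, and 0 were higher and 8 lower at 21 and 22 nt. AT4G27930, at 0.03, stood at -1.10 without dxo1 replicate 2 and at 0.80 without the library labelled dxo1 replicate 1. With only the groups compared, 36 were lower at 21 and 22 nt.

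In the gene libraries, DESeq2 called 5 lower in polyA RNA, and 4 higher and 1 lower in capture against total RNA in dxo1. With no filter, 1 was lower in capture in Col-0, and 2 rose and 3 fell in total RNA. With only the groups compared, 0 were higher in capture in Col-0, 4 lower in capture in dxo1, and 2 rose and 3 fell in total RNA. With library totals alone, 11 were higher and 0 lower in capture in dxo1, and 0 fell in total RNA. Without every dxo1 library numbered 1, 0 were higher in capture in Col-0, 0 higher and 0 lower in dxo1, and 0 fell in total RNA. The cause of these moves was not tested.

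With 1 library left out at a time, 23 to 49 of the 200 were higher and 75 to 129 lower at 24 nt, and 2 to 7 higher and 39 to 142 lower at 21 and 22 nt. In polyA RNA 0 to 9 were higher and 3 to 11 lower, in total RNA 0 to 2 and 0 to 3, and in GMUCT 7 to 10 in each direction. Capture against total RNA gave 2 to 10 higher and 0 to 5 lower in dxo1, 0 to 8 and 0 to 3 in Col-0, and the capture ratio 0 higher and 0 to 1 lower. A lone library left in a group was assumed to vary like the others.

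By replicate number, the deviations of libraries from their group means correlated at 0.538 between dxo1 GMUCT and dxo1 polyA RNA and at -0.0462 to 0.0930 between all other groups; with 2 libraries a group and no shared origin in the labels, none were fitted as pairs. With the number as a replicate block, 39 were higher and 82 lower at 24 nt, 5 and 64 at 21 and 22 nt, 5 and 8 in polyA RNA, 0 and 0 in total RNA, 7 and 2 in capture in dxo1, 6 and 0 in capture in Col-0, 0 and 0 in the capture ratio, and 11 and 10 in GMUCT. With the dxo1 rdr6 counts halved, 40 were higher and 87 lower at 24 nt, and 9 and 69 at 21 and 22 nt.

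Depth limits most of the 200 outside small RNA, since 147 had fewer than 10 counts in every gene library, and the shallow dxo1 replicate 2 limits the small RNA comparisons.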
